A study of Mus musculus with 8 samples.

Results

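The TCF/LEF transcription factors Lef1, Tcf7, Tcf7l1 and Tcf7l2 and the TLE corepressors Tle1, Tle2, Tle3 and Tle4 were followed in whisker follicles of mice given the compound E7386 or vehicle. The genes were chosen by name, and an array probe was assigned to one of them where its RefSeq accession belonged to that symbol. All 8 genes were on the array, and all 8 were among the 25353 genes that passed the filter on dim probes. They were read by 15 probes, all of them well above background on all 8 arrays. None of the 8 genes passed the test of E7386 against vehicle. Tcf7 was high where the hair shaft keratins were high and low where they were low, also when each group was taken about its own mean.

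All mice were female and carried ApcMin/+, a truncating mutation of 1 copy of the Wnt pathway suppressor Apc, so the vehicle mice carry it too. E7386 was given by mouth at 30 mg/kg, 2 doses a day, starting when the mice were 8 weeks old. Dosing ran for 4 cycles, each made of 5 days with compound and 2 days without, and the follicles were taken 6 h after the last dose. The labels name vehicle alone as the agent of the other group. Each group has 4 samples, each on a 1-colour array of the same slide. Vehicle samples filled one row of that slide and E7386 samples the other, so row and treatment cannot be told apart. Samples with the same replicate number in the 2 groups lay in the same column of the slide. The labels do not say whether each sample came from a separate mouse, so p-values measure the spread between these samples, which may be technical.

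TCF/LEF proteins bind DNA and act as the nuclear end of canonical Wnt signalling. Without a Wnt signal they recruit TLE proteins, which keep target genes off, and β-catenin replaces or outweighs the TLE proteins when the pathway is on. In the hair follicle Lef1 is known for the precortex and matrix, where hair keratin genes are switched on, Tcf7l1 for stem cells of the bulge and outer root sheath, and Tcf7 and Lef1 also for T cells. E7386 is described as a blocker of the interaction between β-catenin and the coactivator CBP, the product of Crebbp.

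Values below are normalised log2 signals, the log2 of an array's processed intensity minus the 75th percentile of that array. A value of 0 is thus the 75th percentile, and 1 unit is a doubling. Before that scaling the 75th percentile ranged from 564.6 to 656.2 intensity units in vehicle and from 459.4 to 620.2 in E7386 samples. The share of spots well above background was 62.2% to 64.7% in vehicle and 61.5% to 61.9% in E7386 samples. In that share every E7386 array was thus below every vehicle array, and its effect on the comparison was not tested. Inner root sheath markers, which a whisker follicle should hold, were strong, with 7 of 7 measured and a mean of 6.79 to 7.36 on the 8 arrays. The mean of 12 skeletal muscle genes ranged much more widely, from 1.62 to 4.68 in vehicle and from 1.87 to 4.77 in E7386 samples. It was lowest in vehicle 1, E7386 1 and E7386 2. Because each sample is bulk tissue, fewer cells of a type and less RNA per cell cannot be told apart.

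RefSeq start regions (GRCm38.p6) were read for Lef1 and for Krt31, a hair shaft keratin, since TCF/LEF sites are known before hair keratin genes, to show what a TCF/LEF motif looks like there. Each sequence is the 250 bases before a transcript start, 5′ to 3′ on the gene's strand, with the core motif CTTTGA or its reverse complement TCAAAG in capitals. The first Lef1 start region, at chr3:131110047-131110296 on the + strand, holds no match. The fourth Lef1 entry, at chr3:131156044-131156293, lies 45997 bases farther along the + strand. It holds matches that begin 180 and 120 bases before the start, both on the opposite strand. The region before Krt31, at chr11:100050552-100050801 on the − strand, holds 1 match on the gene's own strand, 244 bases before the start.
Lef1 entry 1: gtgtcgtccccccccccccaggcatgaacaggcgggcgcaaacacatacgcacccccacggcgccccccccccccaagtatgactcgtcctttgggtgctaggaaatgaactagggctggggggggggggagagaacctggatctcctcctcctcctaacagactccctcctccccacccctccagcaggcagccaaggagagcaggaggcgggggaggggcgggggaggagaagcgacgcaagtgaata
Lef1 entry 4: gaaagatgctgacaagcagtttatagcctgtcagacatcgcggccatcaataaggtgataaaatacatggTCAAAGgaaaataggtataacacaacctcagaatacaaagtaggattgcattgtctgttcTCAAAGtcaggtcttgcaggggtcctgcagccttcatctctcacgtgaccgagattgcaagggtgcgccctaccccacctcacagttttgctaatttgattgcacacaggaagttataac
Krt31: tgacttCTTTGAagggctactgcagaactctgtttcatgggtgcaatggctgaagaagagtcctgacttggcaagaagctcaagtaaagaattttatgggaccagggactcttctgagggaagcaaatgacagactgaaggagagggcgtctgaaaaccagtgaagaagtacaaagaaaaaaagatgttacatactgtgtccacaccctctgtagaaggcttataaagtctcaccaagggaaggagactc
The motif was searched on both strands and no other motif was searched. It occurs in 13.8% of 32851 such regions of all genes, and in 1 of the 14 regions of the 8 TCF/LEF and TLE genes. A match here describes letters and not a bound site. Lef1 had 1 probe, so its starts were not measured separately.

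The first comparison asked whether E7386 changed the level of the factors themselves. Lef1, the factor of hair matrix and precortex, read 2.10, 1.83, 1.38 and 1.26 in the vehicle samples and 2.01, 1.64, 1.30 and 1.65 in the E7386 samples. Vehicle 1 and E7386 1 were the highest and vehicle 4 the lowest, and the groups overlapped almost fully. The difference was 0.0076 (SE 0.22, 95% interval −0.49 to 0.51, limma adjusted p = 0.994), which leaves room for a change of up to about 1.42-fold.

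Tcf7, which encodes TCF1 and is also a T cell factor, read 0.08, 0.39, −0.90 and −0.47 in vehicle and −0.01, −0.29, 0.04 and 0.75 in E7386 samples. The lowest values were vehicle 3 and vehicle 4 and the highest was E7386 4, with overlap between the groups. The estimate was 0.35 higher with E7386 (SE 0.32, 95% interval −0.38 to 1.08, adjusted p = 0.658). Its second, dimmer probe read −3.36, −3.14, −4.05 and −3.90 in vehicle and −3.29, −3.44, −3.45 and −2.68 in E7386 samples. That probe showed the same low vehicle arrays and the same high E7386 array, with a difference of 0.40.

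Tcf7l1, which encodes TCF3 and mainly represses, read 0.27, 0.39, 0.52 and 0.41 in vehicle and 0.32, 0.35, 0.43 and 0.11 in E7386 samples. The values lay close together apart from the low E7386 4, and the groups overlapped. The difference was −0.096 (SE 0.093, adjusted p = 0.677). Tcf7l2, which encodes TCF4, read −0.74, −1.0, −0.40 and −0.54 in vehicle and −0.68, −0.77, −0.59 and −0.85 in E7386 samples. All 4 E7386 values fell within the range of the vehicle values. The difference was −0.057 (SE 0.13, adjusted p = 0.894), and its other probes differed by 0.083 and −0.075.

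Over the 8 arrays the brightest probes of the 4 TLE corepressors spanned 0.33 to 0.48 log2 units and those of the 4 factors 0.41 to 1.65. The second Tle2 probe spanned 0.83. Tle1 read 2.64, 2.65, 2.71 and 2.49 in vehicle and 2.63, 2.84, 2.73 and 2.79 in E7386 samples. The difference of 0.13 (SE 0.081) was the smallest in p of the 8 genes and did not pass the test (adjusted p = 0.509). The groups overlapped, and the other Tle1 probes differed by 0.048 and 0.13. Tle2 read 2.63, 2.51, 2.82 and 2.99 in vehicle and 2.70, 2.76, 2.85 and 2.73 in E7386 samples, a difference of 0.023 (SE 0.11, adjusted p = 0.953). The E7386 samples were all inside the vehicle range. Tle3 read 4.46, 4.31, 4.13 and 4.31 in vehicle and 4.38, 4.34, 4.27 and 4.17 in E7386 samples, a difference of −0.014 (SE 0.090, adjusted p = 0.967). Tle4 read −2.03, −1.94, −2.12 and −2.41 in vehicle and −2.0, −1.93, −2.04 and −2.14 in E7386 samples, a difference of 0.097 (SE 0.11, adjusted p = 0.742). For Tle3 and Tle4 the groups overlapped as well, and vehicle 4 was the lowest of these Tle4 values. The other probes of Tle2 and Tle4 differed by −0.092 and 0.021.

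**Figure D1:**
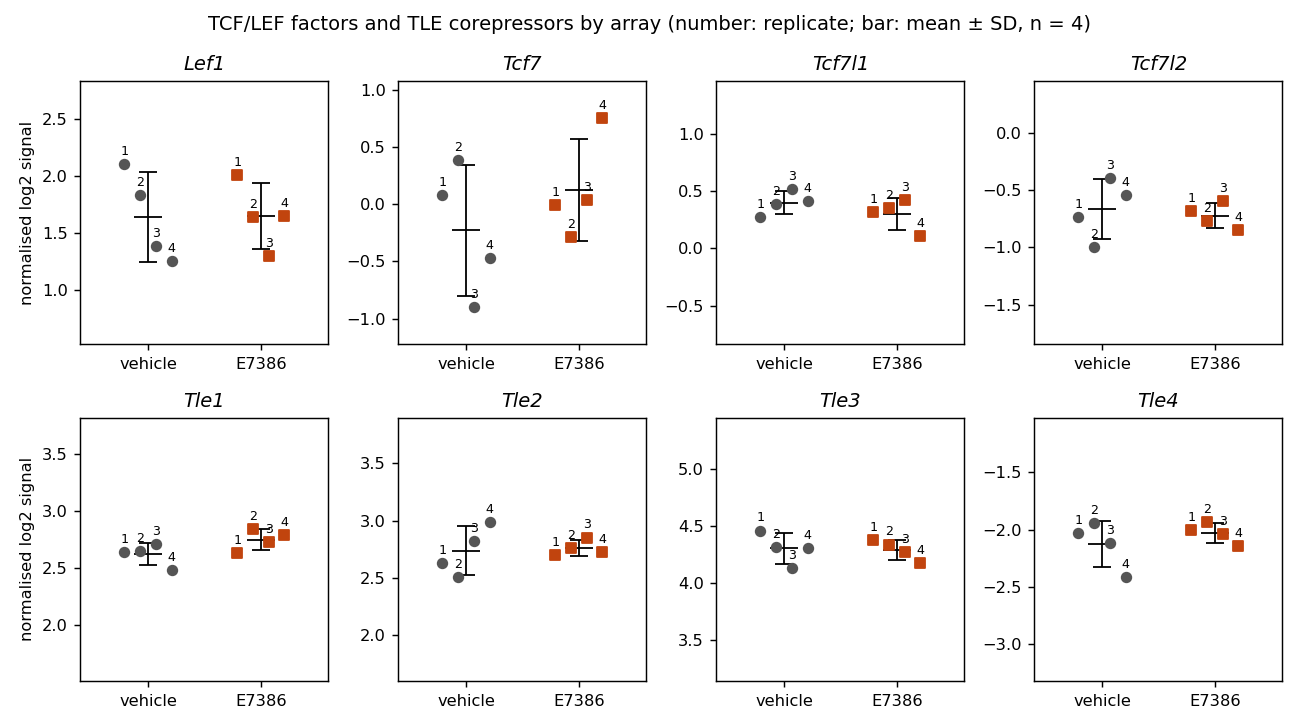
Normalised log2 signal (y axis) of the 8 genes in each vehicle (grey circles) and E7386 (orange squares) sample, numbered by replicate, with mean and SD of 4 samples as bars. Every panel spans the same number of log2 units. The groups overlap for all 8 genes, and Tcf7 has the widest spread, from −0.90 to 0.75.

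Of the 8 genes, 0 were called by limma at an adjusted p of 0.05 and 0 had an unadjusted p below 0.05, against 1.12% of all genes called and 15.2% with an unadjusted p below 0.05. In 0 of the 8 did the groups stand apart, against 10.5% of all genes. The median difference of the 8 genes was 0.015, beside 0.0088 over all genes. The 284 genes called overall comprised 191 higher and 93 lower with E7386, or 135 and 122 when arrays were centred on their medians. With replicate number, and so slide column, as a block 59 genes were called, and none of the 8.

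The second comparison followed each gene against the hair shaft keratins. The keratin score is the mean signal of Krt31, Krt35 and Krt86 on an array. It was 8.67, 8.85, 7.60 and 7.92 in vehicle samples and 8.63, 8.33, 8.36 and 9.01 in E7386 samples. Vehicle 3 and vehicle 4 were lowest and E7386 4 highest. Krt31, the keratin whose start region is shown above, varied most of the 3, reading 8.09, 8.43, 6.52 and 7.15 in vehicle and 7.99, 7.63, 7.75 and 8.72 in E7386 samples. The group difference in the score of 0.32 was within the spread (exact two-sided permutation p = 0.4, where 4 against 4 samples can reach 0.0286).

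Tcf7 followed this score over the whole range. Its lowest value was on the array with the lowest keratin score, vehicle 3, and its highest on the array with the highest, E7386 4. Each unit of keratin score went with 1.03 units of Tcf7 (SE 0.14, 95% interval 0.70 to 1.35, limma with a group term, adjusted p = 0.0169). The second Tcf7 probe had a slope of 0.81 (SE 0.11, adjusted p = 0.0193 over probes). Over the 8 arrays Pearson's r was 0.961 (exact permutation p = 0.000174) and Spearman's rho 0.976 (exact permutation p = 0.000397). Within groups r was 0.955 (exact permutation p = 0.00521), and without vehicle 3 and vehicle 4, the arrays farthest from the median score, it was 0.909 (exact permutation p = 0.0153). The slope kept its size without any 1 array, from 0.93 to 1.08. It lost the call without vehicle 1 (adjusted p = 0.0518), vehicle 2 (0.127) or vehicle 3 (0.119). With quantile normalisation the slope was 1.41 with adjusted p = 0.0676, and with replicate number (slide column) as a block it was 1.21 with adjusted p = 0.0858.

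**Figure D2:**
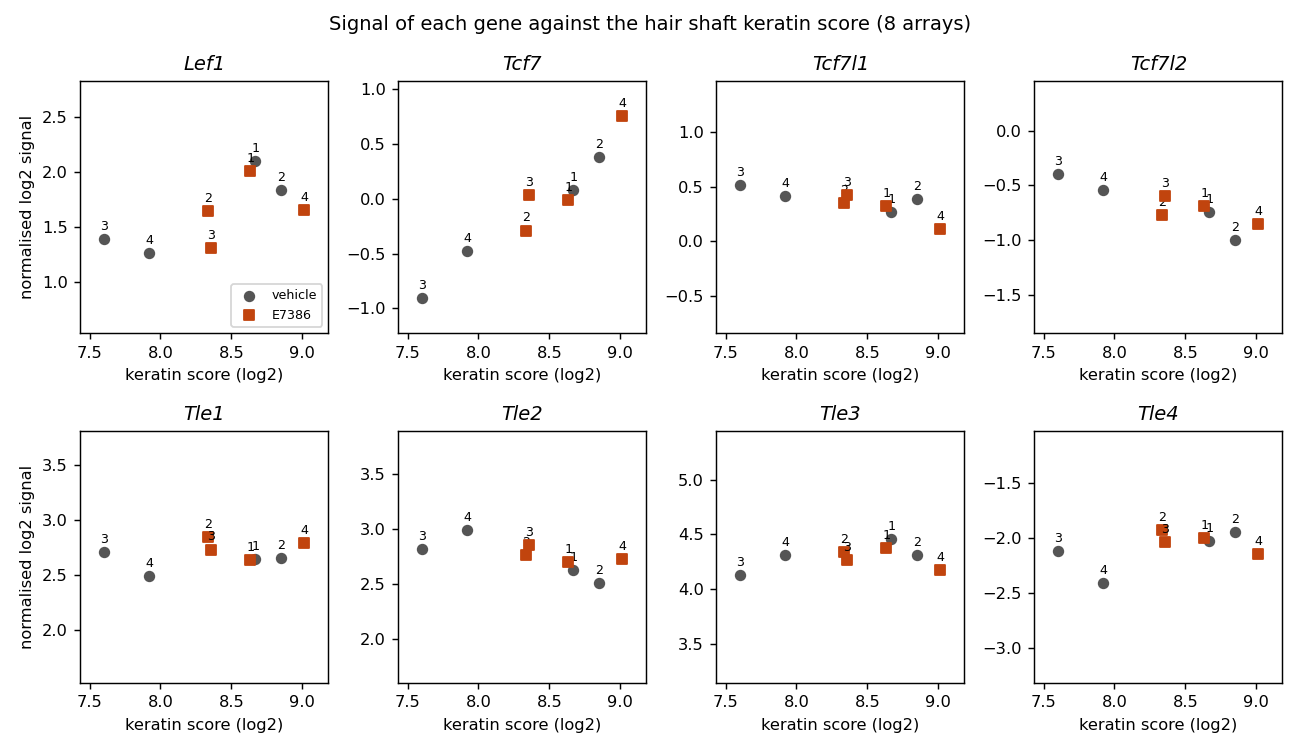
Normalised log2 signal of each gene (y axis) against the keratin score in log2 units (x axis) on the 8 arrays, vehicle as grey circles and E7386 as orange squares, numbered by replicate. Tcf7 climbs from −0.90 on vehicle 3 to 0.75 on E7386 4, while Tcf7l2 is highest on vehicle 3 at −0.40.

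Lef1 was also higher where keratins were higher, but less closely. Its slope was 0.51 (SE 0.20, adjusted p = 0.229), r was 0.665 (exact permutation p = 0.0748) and rho 0.667 (exact permutation p = 0.0831). Without vehicle 3 and vehicle 4, r was 0.381 (exact permutation p = 0.476). The repressor Tcf7l1 and Tcf7l2 leaned the other way. Tcf7l2 had a slope of −0.38 (SE 0.094, adjusted p = 0.0942), r of −0.886 (exact permutation p = 0.0035) and rho of −0.833 (exact permutation p = 0.0154). This relation rests partly on vehicle 3 and vehicle 4, without which r was −0.679 (exact permutation p = 0.131). The other Tcf7l2 probes disagreed in size, with slopes of −0.048 and −0.30. Tcf7l1 had a slope of −0.19 (SE 0.088, adjusted p = 0.282), r of −0.803 (exact permutation p = 0.0145) and rho of −0.762 (exact permutation p = 0.0368). Without vehicle 3 and vehicle 4 its r was −0.700 (exact permutation p = 0.113).

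Among the corepressors, Tle2 was lower where keratins were higher, with a slope of −0.26 (SE 0.098, adjusted p = 0.206) and −0.55 on its other probe. Its r was −0.712 (exact permutation p = 0.0469), rho −0.738 (exact permutation p = 0.0458), and r without vehicle 3 and vehicle 4 −0.598 (exact permutation p = 0.2). Tle1, Tle3 and Tle4 had slopes of 0.0070, 0.093 and 0.12, none near the threshold. The other probes gave 0.19 (SE 0.088) and −0.029 for Tle1 and −0.088 for Tle4. On the brightest probes of Tle1, Tle3 and Tle4, r was 0.251, 0.338 and 0.448, and each turned negative without vehicle 3 and vehicle 4. In all, 8 such relations were computed. Tcf7 was the 1 of 8 genes called, where 2.62% of all genes were called (2.37% with a positive slope). The 665 genes behind that share fell to 0 without vehicle 2 and to 0 with the replicate block, so the share depends on both. An unadjusted p below 0.05 was reached by 4 of the 8 genes and by 19.6% of all genes. The median slope was 0.050 for the 8 genes and 0.020 over all genes.

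**Figure D3:**
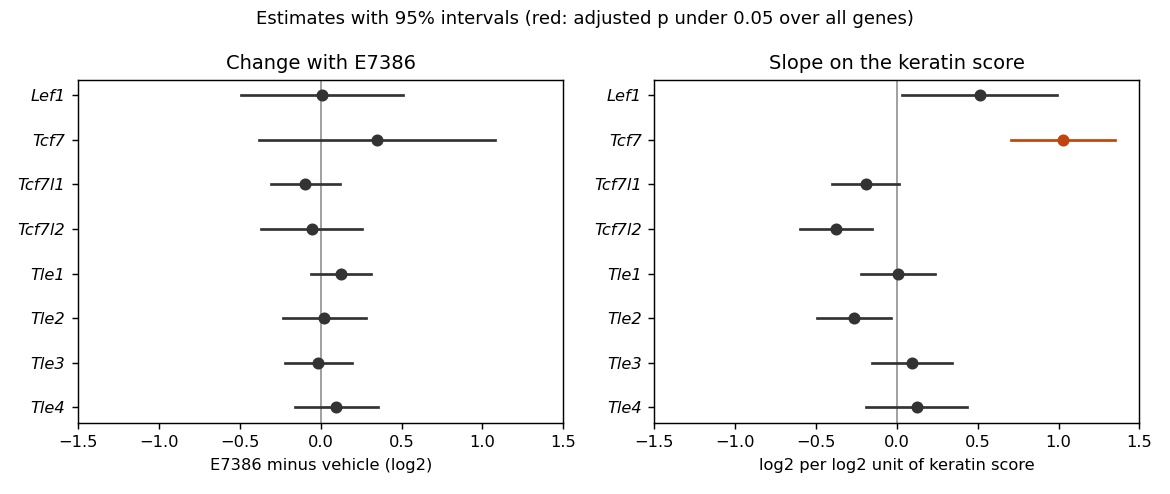
Left, E7386 minus vehicle difference in log2 units; right, slope in log2 units per log2 unit of keratin score, for each of the 8 genes, with points as estimates and lines as 95% intervals over 8 arrays. Red marks an adjusted p below 0.05 over all genes, reached by the Tcf7 slope of 1.03 and by no difference between the groups.

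Genes of several other lists were called on the same score. In other marker lists, skeletal muscle had 0 of 12 positive slopes (median −0.75) and dermal papilla 2 of 10 (median −0.34). Endothelium had 1 of 5 (median −0.16) and outer root sheath and bulge 4 of 9 (median −0.093). No gene of these lists was called. Over all genes 2.62% were called, 19.6% had an unadjusted p below 0.05 and 53.1% had a positive slope. Foxn1, a matrix regulator of hair keratin genes, had a slope of 0.84 (SE 0.090, adjusted p = 0.00991), and was 1 of 8 matrix and precortex markers called. Of these 8 markers 7 had positive slopes, while Shh went the other way at −1.83 (SE 0.78, limma adjusted p = 0.26). Shh was well above background on 7 of the 8 arrays. It read −6.51 on E7386 4, the array with the highest keratin score, and −3.56 to −1.92 on the others. All 7 inner root sheath markers had positive slopes, median 0.42, and 1 was called, Krt72, a keratin of that sheath, at 0.87 (SE 0.12, adjusted p = 0.0194). Of 6 adipocyte markers 1 was called, the fatty acid binding protein gene Fabp4 at 1.06 (SE 0.11, adjusted p = 0.00978), while the other 5 had negative slopes. All 7 melanocyte markers had positive slopes, median 0.66, of which limma called 0, with 6 at an unadjusted p below 0.05. Since Tcf7 also marks T cells, 10 T cell markers were read beside it, with a mean of −2.06 to −1.66 in vehicle and −2.30 to −1.35 in E7386 samples. Cd4 read 3.43, 3.43, 2.10 and 2.01 in vehicle and 3.02, 3.05, 2.57 and 3.64 in E7386 samples, with a slope of 1.26 (SE 0.19, adjusted p = 0.0254). Vehicle 3 and vehicle 4 were thus low for Cd4 as for Tcf7. It was the 1 T cell marker of 10 called. Cd8a and Cd27 were well above background on 5 and 6 of the 8 arrays. The T cell receptor components differed from it: Cd3e had a slope of 0.21 (adjusted p = 0.395), Cd3d −0.58 (adjusted p = 0.44) and Cd3g −0.85 (adjusted p = 0.0756). The part of these cell types in the Tcf7 slope was not tested.

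Lef1 was also set against the muscle signal of the samples, a relation added after the data were seen, and it was not called. The muscle score read 1.62, 3.92, 4.48 and 4.68 in vehicle and 1.87, 2.69, 4.67 and 4.77 in E7386 samples. In both groups it thus rose with replicate number, and so with slide column. Muscle signal and slide column can therefore hardly be told apart. Lef1 was highest on vehicle 1 and E7386 1, the arrays with the least muscle signal, at 2.10 and 2.01. The slope on the muscle score was −0.20 (SE 0.054, adjusted p = 0.114), with r of −0.838 (exact permutation p = 0.0176) and rho of −0.714 (exact permutation p = 0.0576). Without vehicle 1 and E7386 1, r was −0.504 (exact permutation p = 0.331), and with the replicate block the slope turned to 0.16 (adjusted p = 0.794). Tle3 had a slope of −0.065 (SE 0.027, adjusted p = 0.252) and r of −0.813 (exact permutation p = 0.0112), which was −0.560 without those arrays (exact permutation p = 0.233). Of the 8 genes, limma called 0 on muscle, against 2.92% of all genes called. An unadjusted p below 0.05 was reached by 2 of the 8, and for this score that share was not computed over all genes. Tcf7 had a muscle slope of −0.0010 (SE 0.14). With both scores in 1 fit, the keratin slope was 1.12 for Tcf7 (SE 0.073, adjusted p = 0.0101) and 0.37 for Lef1 (SE 0.092, adjusted p = 0.0928).

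**Figure D4:**
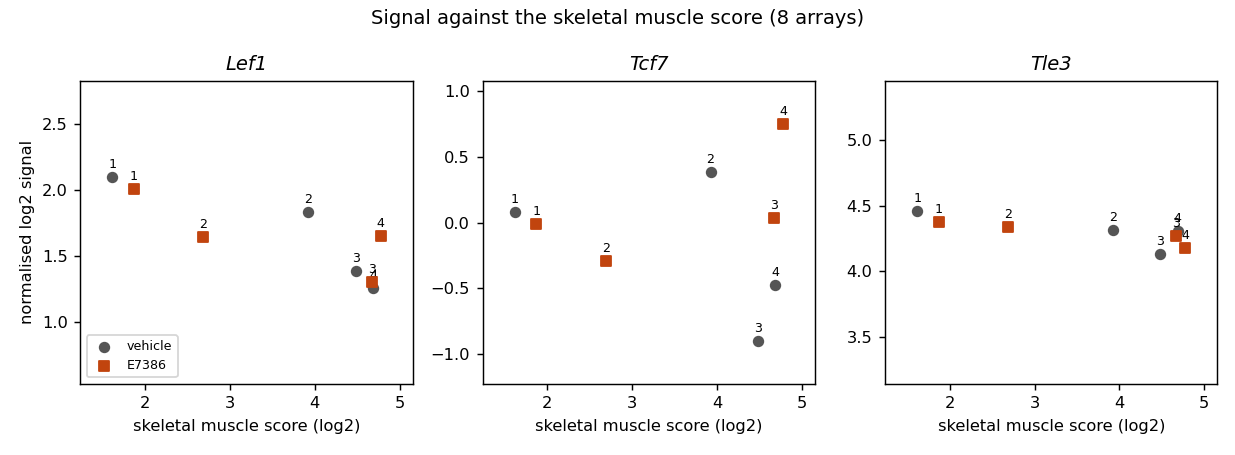
Normalised log2 signal (y axis) of Lef1, Tcf7 and Tle3 against the mean of 12 skeletal muscle genes in log2 units (x axis) on the 8 arrays, vehicle as grey circles and E7386 as orange squares, numbered by replicate. Lef1 is at 2.10 and 2.01 on the arrays of least muscle signal, while Tcf7 shows no clear order along this axis.

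The nearest relatives, partners and targets of these factors were read from the same fit. Tle6, a divergent member of the TLE family, read 1.14, 1.22, 1.44 and 1.5 in vehicle and 1.04, 1.03, 1.11 and 0.98 in E7386 samples. All E7386 values were below all vehicle values, and the groups stood apart in either direction for 10.5% of all genes. The Tle6 difference of −0.29 (SE 0.098, adjusted p = 0.224) did not pass the test. Tle5, a short TLE-family protein that lacks the repressing WD domain, differed by 0.053 (SE 0.089), and −0.12 on its other probe.

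All 25 genes listed as β-catenin and TCF cofactors were measured, of which limma called 0 higher and 1 lower. At an unadjusted p below 0.05, 1 was higher and 4 were lower. Over all genes 1.12% were called and 15.2% had an unadjusted p below 0.05. The median of the list was −0.095 against 0.0088 over all genes. Over all genes 0.753% rose and 0.367% fell. The gene that fell was Hic1, a transcriptional repressor reported to keep TCF4 away from its targets. It read 1.21, 1.73, 1.71 and 1.67 in vehicle and 0.77, 0.76, 0.57 and 0.36 in E7386 samples, with no overlap. The groups also stood apart for Med13, Hdac1, Pygo2 and Ctbp1, none of them called, and for 10.5% of all genes. Hic1 fell by 0.96 (SE 0.15, adjusted p = 0.0266), and its other probe gave −0.90 (SE 0.24, adjusted p = 0.144 over probes). The call was lost without vehicle 2, 3 or 4 or E7386 2, 3 or 4, with adjusted p up to 0.101, and with the replicate block (adjusted p = 0.119). With 1 array left out the difference stayed between −1.09 and −0.88. The next genes by p were Med13, a Mediator kinase module subunit, at 0.31 (SE 0.091, adjusted p = 0.166), and the histone deacetylases Hdac2 at −0.36 (SE 0.11, adjusted p = 0.195) and Hdac1 at −0.28 (SE 0.092, adjusted p = 0.212). The compound's own pair did not pass. Ctnnb1, which encodes β-catenin, differed by −0.095 (SE 0.067, adjusted p = 0.55) and Crebbp by −0.0052 (SE 0.39, adjusted p = 0.998). Crebbp varied widely between arrays, from 1.14 on vehicle 1 to 2.84 on vehicle 4, with a keratin slope of −1.17 (SE 0.25, adjusted p = 0.0662).

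Of 18 genes listed as TCF/LEF targets 13 were measured, of which limma called 0 higher and 1 lower, with 0 and 2 at an unadjusted p below 0.05. These counts stand beside 1.12% and 15.2% of all genes, and 2 of 13 is near the latter. The list's median was −0.018. Ccnd1, the cell cycle gene of cyclin D1, read 3.91, 3.82, 3.70 and 3.62 in vehicle and 3.21, 3.11, 2.74 and 2.84 in E7386 samples. Every E7386 sample was below every vehicle sample, as was also so for Zfp703, which was not called. Ccnd1 fell by 0.79 (SE 0.12, adjusted p = 0.0294), and 1 probe read it. This call held without E7386 1 and was lost without any of the other 7 arrays, with adjusted p up to 0.0991 and differences between −0.87 and −0.71. It was also lost with the replicate block (adjusted p = 0.0593). Znrf3, a ubiquitin ligase that removes Wnt receptors, differed by −0.29 (SE 0.095, adjusted p = 0.205). Twist1, a mesenchymal transcription factor, differed by 0.21 (SE 0.091, adjusted p = 0.331), and Notum, a secreted Wnt inhibitor, by 0.20 (SE 0.11, adjusted p = 0.433). Axin2, the most widely used readout of β-catenin and TCF activity, was named for that use and differed by −0.15 (SE 0.10, adjusted p = 0.532).

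**Figure D5:**
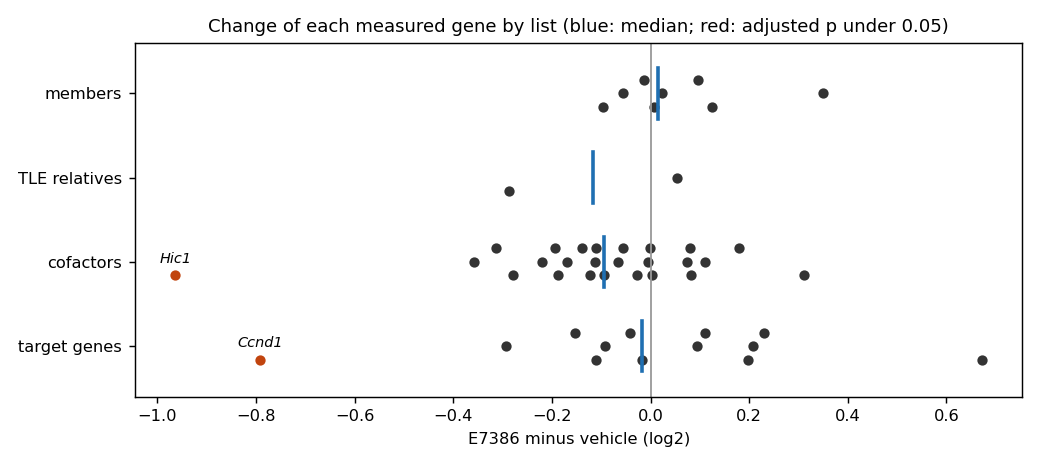
E7386 minus vehicle difference in log2 units (x axis) for each measured gene of the 4 lists: the 8 TCF/LEF and TLE genes, 2 other TLE relatives, 25 cofactors and 13 target genes. Points are genes, blue lines list medians, and red marks an adjusted p below 0.05, reached by Hic1 at −0.96 and Ccnd1 at −0.79.

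Genes most alike in pattern were sought over the 8 arrays after centring within groups, among 15239 genes with a symbol and signal above background on all arrays. Being the highest of so many, these r values are descriptions and carry no test. For Lef1 they were Nus1, a subunit of the enzyme that makes dolichol chains (r = 0.998), Xpot, which exports transfer RNA (0.994), and Pgd, a pentose phosphate enzyme (0.992). For Tcf7 they were Usp53 (0.994), Mlf1 (0.994) and Ppara, a nuclear receptor for fatty acids (0.991). For Tcf7l1 they were Srr, which makes D-serine (0.994), Fbxl7 (0.984) and Zfpm2, a partner of GATA factors (0.971). For Tcf7l2 they were Zrsr2, a splicing factor (0.993), Mterf3 (0.987) and the touch channel gene Piezo2 (0.982).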

How the data were processed

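Total RNA (50 ng) was labelled with Cy3 and hybridised to 8 1-colour Agilent arrays, per the labels' protocols. The scanner files deposited by the authors hold spot intensity values from Feature Extraction, which the submitters' processing notes give as version 11 and the headers as 11.5.1.1. That program corrected the processed signal for background. The authors also deposited a table of log2 values, with a median of 5.31 on every array. It follows the scanner values closely (Pearson r of at least 0.9997) and was used as an alternative. Its normalisation is not given in the sources used here.

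Flagged spots and control spots were left out, spots of a probe averaged, and log2 values scaled to each array's 75th percentile over probes. Of 55681 probes, 27509 took a symbol from RefSeq (GRCm38.p6) through their accession. A gene is its brightest probe, kept where well above background on at least 3 of 4 arrays of a group. Krt85 was planned for the keratin score and found no symbol match, so 3 of 4 keratins were used. Groups were compared in limma 3.58.1 (R 4.3.3, lmFit and eBayes), and slopes were fitted with group as a term, all with Benjamini-Hochberg adjustment over 25353 genes. Scores and correlations used exact permutation. The fits were tested on simulated data. Of simulated group changes of 0.5, 1 and 2 log2 units they recovered 27.65%, 85.35% and 97.85%. Of slopes of 0.5, 1 and 2 they recovered 13.65%, 80.9% and 97.55%. Taken over all simulated probes, a change or slope near 0.5 would thus mostly be missed. These rates are averages over 32781 probes and do not hold for each of the 8 genes. The SE of their group differences ran from 0.081 for Tle1 to 0.32 for Tcf7. Genes, scores and lists were chosen with earlier results of these data known, so no list count is independent evidence. Genes named were the 8 members, their probes, the score's keratins, the 4 smallest p of each list with any called, and the 3 most alike genes for the 4 factors. Marker genes, Ctnnb1, Crebbp, Axin2, Pygo2, Ctbp1 and Zfp703 were added after their values were seen. The number of arrays limits the precision.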

Additional observations from a re-analysis of the deposited data

Results flagged for a closer look

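Among 60 groups of 4 samples examined for a sample far from the others, 2 were found, where chance gives about 1 in 20. For Hic1, vehicle 1 read 1.21 against 1.67 to 1.73 in the other vehicle samples, a gap of 0.899 of that group's range. For Znrf3, vehicle 2 read −2.14 against −1.92 to −1.89 in the others, a gap of 0.906 of the range. None of the TCF/LEF or TLE probes had such a sample.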

How the results depend on the processing

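No TCF/LEF or TLE gene was called between the groups under any alternative, with adjusted p from 0.399 to 0.996, but differences near 0 changed sign. Lef1 was −0.015 with normexp, −0.069 with array-median scaling, −0.057 with array weights, −0.16 and −0.028 with the keratin or muscle score as a covariate, and −0.015 without the 3 arrays of least muscle signal. Tcf7l2 was 0.066 with the keratin covariate, and Tle2 −0.053 with array-median scaling and −0.035 as the mean of its probes. Leaving out 1 array at a time gave Lef1 −0.12 to 0.16, Tcf7l2 −0.17 to 0.034, Tle2 −0.053 to 0.11 and Tle3 −0.071 to 0.039. The keratin score then differed between groups by 0.11 to 0.52.

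The Tcf7 slope stayed positive throughout, but lost its call with quantile normalisation (1.41), in the authors' log2 table (1.41, adjusted p = 0.0687) and with the replicate block (1.21), and ranged from 0.93 to 1.08 with 1 array left out. Tcf7l2 passed with normexp (−0.33, adjusted p = 0.0483). Tle1 slopes turned to −0.12 with quantile normalisation, −0.12 in the authors' log2 table and −0.0014 with array weights, and the Tle3 slope to −0.022 with the replicate block. With 1 array left out, Tle1 ran from −0.043 to 0.11 and Tle3 from −0.029 to 0.17. The Lef1 muscle slope was 0.16 with the replicate block, and −0.17 (adjusted p = 0.0498) with the keratin score added.

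Without the arrays farthest from the median keratin score, r was −0.700 for Tcf7l1, −0.679 for Tcf7l2, −0.598 for Tle2, −0.243 for Tle1, −0.337 for Tle3 and −0.513 for Tle4. Centred within groups, Tle2 had r of −0.802 (exact permutation p = 0.108). With array-median scaling Tcf7l1 had r of −0.544. Lef1 reached 0.746 with quantile normalisation and 0.749 in the authors' log2 table, where Tle1 had −0.107 and −0.110. With 1 array left out, r was 0.577 to 0.767 for Lef1, −0.921 to −0.697 for Tcf7l1, −0.105 to 0.437 for Tle1, −0.812 to −0.633 for Tle2 and −0.185 to 0.75 for Tle3.

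Genes called between the groups numbered 154 without the filter, 59 with the replicate block, 614 with the muscle covariate, 48 without the 3 arrays of least muscle signal, and 88 to 240 with 1 array left out. Genes called on the keratin score numbered 401 with quantile normalisation, 426 in the authors' log2 table, 288 without the filter, 0 with the replicate block, 385 without Krt35 in the score, and 0 (without vehicle 2) to 420 with 1 array left out. Hic1 and Ccnd1 also lost their calls without the filter (adjusted p = 0.0564 and 0.0633) and with the block (0.119 and 0.0593), and Ccnd1 without the 3 arrays of least muscle signal (0.0738). Fewer arrays, or residual degrees of freedom spent on the block, leave less to test with; beyond that the cause of these shifts was not tested.

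Replicate numbers are shared by the groups, but same-numbered samples' deviations from the group means correlated at 0.487, −0.165, 0.287 and 0.180, so not every pair passed 0.1 and the block was kept as an alternative. These samples also share a slide column. The planned normexp on mean signals was not run, since the files as used here carry median signals; normexp on median signals, the muscle slopes and the fit without the 3 arrays were chosen after seeing the data. The 8 arrays limit all precision.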
